A study of Mus musculus with 24 samples.

Results

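The doxycycline effect common to 3 media was followed across all 24 of the series' 24 libraries. They came from the mouse myoblast line C2C12, whose cells can fuse into myotubes, carrying a lentiviral vector from which doxycycline induces uncoupling protein 1 (UCP1). For each gene the doxycycline minus water difference was taken within each medium on the log2(FPKM + 1) scale, where FPKM is a fragment count scaled by gene length and library size, and the 3 differences were averaged, 12 libraries a side with treatment as a factor. Of 12904 genes tested, 2950 passed in that average and moved the same way in all 3 media, and 63 of them also passed in the difference of each medium. All but 1 of these 63 genes are described by name, the 2950 by counts.

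Cells were seeded, given doxycycline or as much water after 24 h, and switched to the treatments 24 h later with doxycycline or water kept, and RNA was taken at 16 h. Water groups were BSA (51 µM bovine serum albumin), OA (300 µM oleic acid) and OOA (1 µM oligomycin with 300 µM oleic acid). Dox_BSA, Dox_OA and Dox_OOA had the same treatments with doxycycline. Each group held 4 libraries, and no BSA level is given for the oleic acid groups. Every group carried the vector, and none received doxycycline without it, so effects of the antibiotic and of UCP1 cannot be told apart. Whether the 4 libraries of a group were separate cultures is not in the labels, and p-values then measure their spread alone, which may be technical.

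UCP1, best known from brown fat, is a carrier of the inner mitochondrial membrane that lets protons return to the matrix without passing through ATP synthase. Oligomycin blocks ATP synthase, which raises the membrane potential and slows respiration, and an uncoupler relieves that block on respiration. Doxycycline is a tetracycline, a class of antibiotics that bind bacterial ribosomes and can also slow the related ribosomes inside mitochondria.

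Ucp1 (ENSMUSG00000031710, chr8:84016981-84025081, GRCm39, plus strand) checked the labels. Ucp1 measured 4.24, 5.50, 5.36 and 5.85 FPKM in the 4 BSA libraries, 6.46, 6.90, 7.67 and 6.32 in OA and 4.07, 3.88, 4.33 and 5.38 in OOA. With doxycycline Ucp1 stood at 332, 341, 335 and 338 FPKM in Dox_BSA, 339, 322, 319 and 309 in Dox_OA and 215, 224, 207 and 213 in Dox_OOA. Every doxycycline library lay far above every water library, and the ratios of group means were 64.2, 47.1 and 48.7 in BSA, OA and OOA. Its mean change was 5.49 ± 0.04 (SE), and an exact permutation test with labels exchanged within each treatment gave p = 5.83e-06, two-sided, the smallest that its 343000 assignments allow. Reads of the vector and of the mouse gene were not separated.

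Libraries held 20370651 to 29410667 reads, recovered from the FPKM values. Dox_BSA replicate 1 lay apart from the other 3 of its group on principal components 2 and 3, at 2.23 and -1.01, against -7.13 to -3.02 and 6.58 to 16.4. Without it 2101 genes were higher and 2580 lower in the averaged effect and 125 higher and 177 lower in BSA, and 33 higher and 37 lower were called in every medium, 51 of them among the 63. The myoblast markers Myod1, Myf5, Des, Cdh15 and Pax7 were present in every library. The adipocyte markers Adipoq, Cidea and Plin1, the macrophage marker Adgre1 and the keratins Krt8 and Krt18 were listed at 0 in every library. Cd68, found in macrophages and in lysosomes of other cells, ranged from 0.458 to 2.46 FPKM and rose in the mean effect by 0.33 ± 0.11 (limma adjusted p = 0.0271). Summed over Myog, Myh3, Actc1, Ckm and Mymk, markers of the myotubes into which myoblasts fuse, levels were 41.3 to 52.0 FPKM in BSA and 24.7 to 33.0 in Dox_BSA, 24.1 to 37.9 in OA and 19.8 to 23.1 in Dox_OA, and 10.7 to 12.8 in OOA and 12.2 to 20.3 in Dox_OOA. These sums were lower with doxycycline in BSA and OA, with no overlap, and their part in the gene results below was not tested. In such bulk samples fewer cells of a type and less RNA per cell cannot be told apart.

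Across the 3 media the averaged effect passed for 4614 genes, 35.8% of those tested (limma, Benjamini-Hochberg adjusted p under 0.05). Of these, 2070 were higher with doxycycline (16% of genes tested) and 2544 lower (19.7%). Higher genes made up 44.9% of the calls, but 57.1% (2602 higher, 1957 lower) when each library was rescaled to a fixed sum, which shifted the median of all genes by 0.0239. Most changes were small, with 57 genes at 1.5-fold or more and 8 at 2-fold or more on that scale. Candidates for a change independent of medium were those called in the average with equal signs in BSA, OA and OOA. They numbered 2950 (22.9% of genes tested), 1352 higher and 1598 lower. An interaction F test for differences between media passed for 1107 of these 2950, and for 4179 of all genes tested (32.4%). Equal signs therefore do not show independence of medium, and for the other 1843 a missed threshold does not show equal effects. The 2950 made up 63.9% of the calls in the average, and the other 1664 calls had differing signs. Of all genes tested 37% had 3 equal signs, and of those not called in the average 22.1%. Because the average and its 3 parts hold the same values, these shares are a description.

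One medium weighed most in the average. The difference of each medium was tested with a spread estimated from all 24 libraries. In BSA 281 genes passed (2.18% of those tested), 143 higher (1.11%) and 138 lower (1.07%). In OA 1458 passed (11.3%), 553 higher (4.29%) and 905 lower (7.01%), and in OOA 5903 (45.7%), 2843 higher (22%) and 3060 lower (23.7%). Single libraries mattered: the higher genes in BSA became 92 without BSA replicate 3 and 91 without Dox_BSA replicate 2, and the lower ones 87 without BSA replicate 3, 79 without BSA replicate 4, and 82 and 90 without Dox_BSA replicates 2 and 4. In OA 360 were higher without Dox_OA replicate 2 and 591 lower without OA replicate 2. With each medium fitted alone on its 8 libraries, 38 genes were higher and 42 lower in BSA. In that fit 479 were higher and 855 lower in OA, and 2572 and 2864 in OOA. By the differences tested with the common spread, 469 of the 2950 candidates passed in no medium, 1812 in a single one, 606 in a pair and 63 in all 3. The 1812 passed in OOA in 1608 cases, in OA in 191 and in BSA in 13. The largest of a candidate's 3 changes was in OOA for 2179 genes, in OA for 576 and in BSA for 195, and the median size of change was 0.29, 0.15 and 0.087 on the log2 scale in the same order. An average over BSA and OA without the oligomycin groups called 731 genes higher and 1113 lower.

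Each medium could be set against genes chosen without it, since the 3 differences share no library. They do share each gene's estimate of spread, from all 24 libraries, so genes with little spread pass more easily in both. Of 5243 genes called in the average of OA and OOA, 59.2% had the same sign in BSA and 105 passed there with that sign (2.0%) and 96 with the other (1.83%), together 3.83% against 2.18% of all genes passing in BSA. These 105 became 68 without BSA replicate 3, 63 without BSA replicate 4 and 59 without Dox_BSA replicate 2. Of 4545 genes called in the average of BSA and OOA, 72.0% kept the sign in OA and 809 passed with it (17.8%) and 147 with the other (3.23%), together 21.03% against 11.3% of all genes. For OOA, 1844 genes came from the average of BSA and OA, 61.2% kept the sign, and 804 passed with it (43.6%) and 453 with the other (24.6%), together 68.2% against 45.7%. In either direction the share passing was above that of all genes in each medium, and passes with the other sign were nearly as many as those with the same sign in BSA and far fewer in OA. The differences between these shares were not tested. Given the common spread, a share above that of all genes does not by itself show a shared effect.

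**Figure D1:**
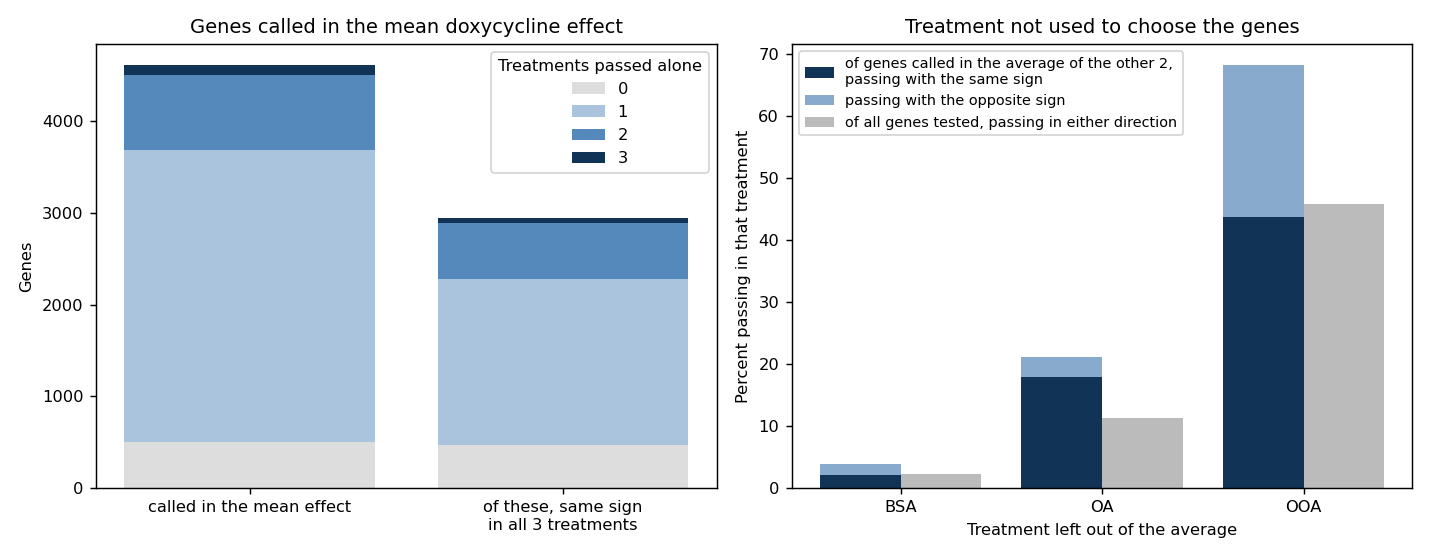
Left, genes called in the mean doxycycline effect and those of them with 3 equal signs, split by the number of treatments in whose own difference each passed. Right, percent of genes passing in a treatment among genes called in the average of the other treatments, with the same sign (dark) or the opposite sign (light), and among all genes tested in either direction (grey). Of the 2950 candidates 63 passed in all 3, and the light part is nearly as tall as the dark in BSA (1.83% and 2.0%) and shorter in OA (3.23% and 17.8%).

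The 63 genes called in every medium made up 0.488% of those tested, 38 higher and 25 lower, all protein-coding. A further 69 genes passed in all 3 media with mixed signs. In 55 of the 63 (33 higher, 22 lower) doxycycline and water libraries did not overlap in any medium, as in 135 of all genes tested (1.05%, 69 higher and 66 lower). The number moved with single libraries of the BSA groups: without BSA replicate 3 the higher genes fell to 25, and without Dox_BSA replicate 2, Dox_BSA replicate 3 or BSA replicate 4 the lower ones fell to 14, 15 and 16. Fitting each medium alone on its 8 libraries left 12 higher and 7 lower. Just inside the threshold were Cuedc1, with an adjusted p of 0.0485 in OOA, and Cdv3, with 0.0484 in BSA. Just outside were Cyb5b (0.0542) and Pltp (0.0543), both in BSA. Median changes of the 38 higher genes in BSA, OA and OOA were 0.28, 0.31 and 0.38, and of the 25 lower genes -0.23, -0.28 and -0.34. Over all genes tested the medians were -0.0044, -0.012 and -0.0071.

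Next to Ucp1 the largest rise was in Adgrg1 (ENSMUSG00000031785, chr8:95701379-95740845, plus strand), whose product GPR56 is an adhesion receptor coupled to G proteins. RefSeq lists 2 starts for it on GRCm38.p6, a build older than that of the files, at which the promoters (250 bases before to 50 after the start, plus strand) lie at chr8:94976859-94977158 and chr8:94984149-94984448. They are shown, with that of Fam43a (chr16:30599473-30599772, plus strand), because these genes rose most after Ucp1 and doxycycline-inducible vectors commonly act through tet operators.
Adgrg1 first start: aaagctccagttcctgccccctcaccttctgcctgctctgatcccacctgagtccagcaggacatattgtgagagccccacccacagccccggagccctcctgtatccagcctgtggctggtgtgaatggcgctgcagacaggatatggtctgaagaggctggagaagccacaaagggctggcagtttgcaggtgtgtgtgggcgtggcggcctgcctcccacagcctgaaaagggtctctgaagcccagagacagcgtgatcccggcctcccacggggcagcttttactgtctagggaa
Adgrg1 second start: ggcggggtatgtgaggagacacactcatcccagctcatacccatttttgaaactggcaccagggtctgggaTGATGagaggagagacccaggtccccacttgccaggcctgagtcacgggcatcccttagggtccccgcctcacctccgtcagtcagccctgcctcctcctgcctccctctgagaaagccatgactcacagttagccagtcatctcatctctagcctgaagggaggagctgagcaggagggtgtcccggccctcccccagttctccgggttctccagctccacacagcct
Fam43a: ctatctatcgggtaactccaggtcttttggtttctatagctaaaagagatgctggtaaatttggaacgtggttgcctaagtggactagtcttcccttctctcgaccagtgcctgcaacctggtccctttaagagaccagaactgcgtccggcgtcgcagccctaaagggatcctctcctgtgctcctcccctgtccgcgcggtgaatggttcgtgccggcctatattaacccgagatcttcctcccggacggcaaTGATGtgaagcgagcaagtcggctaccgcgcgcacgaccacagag
Capitals mark TGATG, the core letters of many ATF4 sites, searched on both strands. The tet operator half-site CTATCA was not found in them on either strand. RefSeq promoters were matched for 44 of the 63 genes, 56 promoters in all, of which 1 (1.79%, that of Capn6) held CTATCA, against 7.29% of 32851 mouse promoters. TGATG was in 16 of the 56 (28.6%), against 39.3% of all. No promoter held the half-site followed after 1 base by its reverse complement. These matches describe letters in a window, not binding.

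Adgrg1 measured 2.07, 1.81, 1.81 and 1.81 FPKM in the 4 BSA libraries, 1.25, 1.14, 1.52 and 1.39 in OA and 0.567, 0.581, 0.765 and 0.612 in OOA. With doxycycline Adgrg1 stood at 25.1, 23.3, 23.8 and 24.9 FPKM in Dox_BSA, 21.7, 22.2, 21.8 and 20.9 in Dox_OA and 11.5, 12.4, 11.1 and 11.1 in Dox_OOA. All 12 doxycycline libraries exceeded all 12 water libraries, and within each arm the level was lowest with oligomycin. Ratios of means were 12.9, 16.3 and 18.2 in BSA, OA and OOA, and the mean change was 3.12 ± 0.03 (SE, limma adjusted p = 8.8e-27). The changes of 3.14 in BSA, 3.29 in OA and 2.94 in OOA differed between media (adjusted p of the interaction 0.00374), by -0.35 (95% interval -0.51 to -0.19) for OOA minus OA.

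Fam43a (ENSMUSG00000046546, chr16:30418541-30421615, plus strand) followed. Fam43a measured 8.60, 9.55, 8.37 and 7.45 FPKM in the 4 BSA libraries, 8.78, 8.66, 6.33 and 8.16 in OA and 7.05, 5.70, 5.42 and 5.999 in OOA. With doxycycline Fam43a stood at 50.1, 51.1, 40.03 and 43.7 FPKM in Dox_BSA, 44.1, 49.1, 39.6 and 38.9 in Dox_OA and 49.4, 55.5, 43.7 and 49.4 in Dox_OOA. The arms were far apart in every medium, with the widest gap in OOA, where the water mean was lowest. Its mean change was 2.48 ± 0.06 (adjusted p = 1.38e-18), with 2.31 in BSA, 2.29 in OA and 2.84 in OOA, and OOA minus BSA was 0.53 (95% interval 0.23 to 0.83). The ratios were 5.45, 5.38 and 8.19.

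Genes within 300 kb of both were examined in the files' coordinates. Around Adgrg1 lie 26 genes, of which 10 were tested. In the mean effect Ccdc102a was higher (0.13) and Polr2c (-0.16) and Ciapin1 (-0.28) were lower. The other 7, among them the adjacent Adgrg3 (-0.058), did not pass, and the median of the 10 was 0.0088. Around Fam43a lie 12 genes, of which 3 were tested. Tmem44 rose by 0.64 and Atp13a3 by 0.18, and Lsg1 (-0.023) did not pass. Over all genes tested 35.8% were called in the mean effect, so no local change is read from the calls around either gene. Tmem44 averaged 0.771 ± 0.0859 FPKM in BSA and 1.35 ± 0.397 in Dox_BSA, 0.584 ± 0.109 and 1.36 ± 0.204 in OA and Dox_OA, and 0.359 ± 0.0719 and 1.67 ± 0.171 in OOA and Dox_OOA (SD, n = 4). Tmem44 passed in OA and OOA, and Atp13a3 in OOA. Because its water means were under 1 FPKM, Tmem44 entered the test through its doxycycline libraries, so nothing is read from its call.

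**Figure D2:**
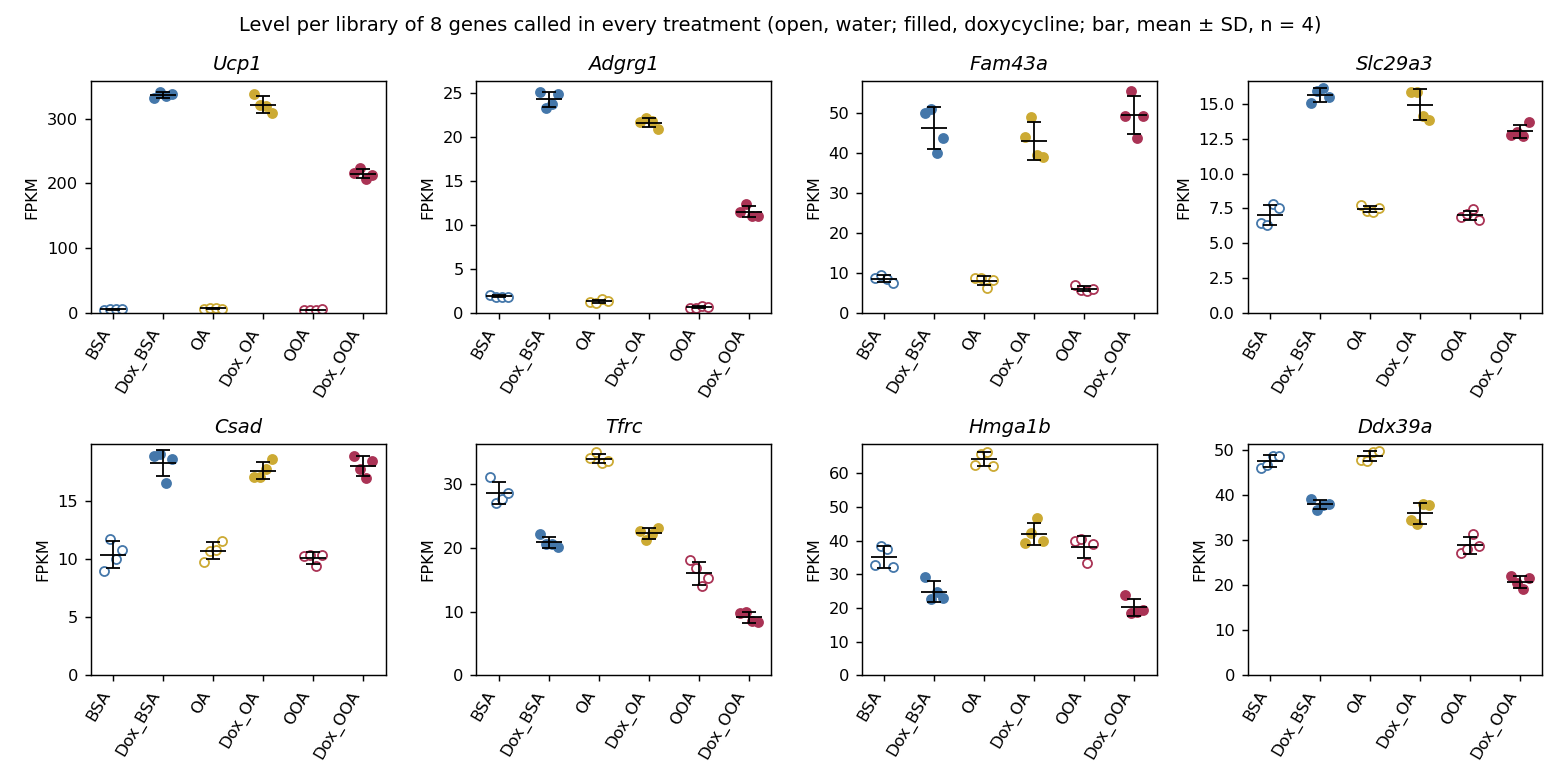
FPKM in each library for 8 genes called in every treatment, water libraries open and doxycycline libraries filled, with mean ± SD (n = 4) for each group on a linear axis from 0. The arms do not overlap within any treatment for any of the 8 genes, which were chosen because they did not overlap.

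The other members are arranged here by known role, an arrangement made with their values known that tests no theme. A transporter and several enzymes were among the 38 higher genes. Slc29a3 measured 6.46, 6.33, 7.80 and 7.51 FPKM in the 4 BSA libraries, 7.71, 7.35, 7.23 and 7.53 in OA and 6.87, 7.08, 7.43 and 6.63 in OOA. With doxycycline Slc29a3 stood at 15.1, 15.96, 16.2 and 15.5 FPKM in Dox_BSA, 15.9, 15.9, 14.1 and 13.8 in Dox_OA and 12.8, 12.97, 12.7 and 13.7 in Dox_OOA. This gene, which encodes the nucleoside transporter ENT3 of lysosomes, about doubled in each medium, with ratios of 2.23, 2.004 and 1.86 and a mean change of 0.93 ± 0.03 (adjusted p = 2.41e-15). Csad measured 8.99, 11.7, 10.01 and 10.7 FPKM in the 4 BSA libraries, 9.77, 10.7, 10.7 and 11.5 in OA and 10.3, 10.3, 9.35 and 10.3 in OOA. With doxycycline Csad stood at 18.8, 18.96, 16.5 and 18.6 FPKM in Dox_BSA, 17.1, 17.00, 17.7 and 18.6 in Dox_OA and 18.9, 17.7, 16.9 and 18.4 in Dox_OOA. Csad, cysteine sulfinic acid decarboxylase of taurine synthesis, stood near the same level in all 3 media within each arm, without overlap between arms. Its changes were 0.76 in BSA, 0.67 in OA and 0.78 in OOA, the mean 0.74 ± 0.04 (adjusted p = 6.87e-13), and OOA minus BSA was 0.014 (95% interval -0.17 to 0.20). Xxylt1, an enzyme that adds xylose to Notch receptors, rose from 20.7 ± 0.63 to 34.9 ± 2.27 FPKM in BSA, 20.3 ± 0.585 to 32.7 ± 1.58 in OA and 15.1 ± 1.51 to 31.6 ± 1.26 in OOA (SD, n = 4), a mean change of 0.80 ± 0.03. It lies 352 kb from Fam43a on chromosome 16. The glutathione transferase gene Gstm5 rose by 0.53 ± 0.04, with 0.53 in BSA, 0.64 in OA and 0.44 in OOA. Mettl7a1 rose by 0.48, more in OOA (0.76) than in BSA (0.35) or OA (0.34). Maoa, monoamine oxidase of the outer mitochondrial membrane, rose by 0.18.

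Some of the 38 have roles in signalling. Src, a membrane-bound tyrosine kinase, went from 15.2 ± 0.89 to 23.6 ± 0.668 FPKM in BSA, 15.2 ± 0.605 to 21.7 ± 0.84 in OA and 16.2 ± 1.09 to 20.2 ± 1.71 in OOA (SD, n = 4). In OOA replicate 2 and Dox_OOA replicate 2 Src was nearly level (17.67 and 17.68), without overlap of the arms. Its changes of 0.61 in BSA, 0.48 in OA and 0.30 in OOA fell in that order (adjusted p of the interaction 0.0102). Socs5 measured 29.8, 27.8, 28.6 and 30.6 FPKM in the 4 BSA libraries, 30.01, 29.3, 28.2 and 28.3 in OA and 23.3, 22.5, 20.8 and 22.4 in OOA. With doxycycline Socs5 stood at 39.2, 38.4, 38.6 and 37.5 FPKM in Dox_BSA, 37.5, 39.5, 37.4 and 38.3 in Dox_OA and 30.6, 28.8, 31.4 and 31.2 in Dox_OOA. This suppressor of cytokine signalling was lower with oligomycin in both arms, and its arms did not overlap. Its changes were 0.39 in BSA, 0.39 in OA and 0.44 in OOA, the mean 0.40 ± 0.02 (adjusted p = 3.16e-12), and OOA minus OA was 0.054 (95% interval -0.057 to 0.16). Deptor, an inhibitory partner of the kinase mTOR, rose by 0.17, 0.26 and 0.52 in BSA, OA and OOA (adjusted p of the interaction 1.99e-05). Gli2, a transcription factor of Hedgehog signalling, rose by 0.48 ± 0.06 from about 1 FPKM in each water group. Hdac5, a deacetylase that restrains muscle transcription factors, rose by 0.24, the tensin gene Tns2 by 0.27, the scaffold gene Dlg4 by 0.24 and the Golgi GTPase gene Rab30 by 0.30.

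Extracellular matrix and complement genes were also among the 38. Mmp9 and Mmp2, the gelatinases, rose by 0.63 ± 0.07 and 0.18 ± 0.02. Mmp2 averaged 208 ± 4.09 and 225 ± 3.33 FPKM in BSA and Dox_BSA, 207 ± 2.36 and 240.3 ± 8.33 in OA and Dox_OA, and 257 ± 2.67 and 296 ± 2.88 in OOA and Dox_OOA (SD, n = 4). Its arms did not overlap, whereas those of Mmp9 overlapped in OOA. The collagen genes Col5a2 and Col14a1 rose by 0.19 and 0.31, and Col5a2 rose by only 0.072 in OOA against 0.25 in BSA and 0.24 in OA. Ccdc80, a secreted matrix protein gene, rose by 0.22, Adamtsl4, of the ADAMTS-like matrix proteins, by 0.28, and Chrdl1, an antagonist of bone morphogenetic proteins (BMPs), by 0.28. Ssc5d, a soluble scavenger receptor gene, rose by 0.35.

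Of complement genes, C1ra, C1s1 and C1s2, which encode proteases of the C1 complex, rose by 0.25, 0.30 and 0.43. They lie together on chromosome 6, with 6.90 kb between C1ra and C1s1 and 82.3 kb between C1s1 and C1s2. C1s1 and C1s2 are close paralogs, so reads could be split between them. C1s1 measured 92.8, 102, 96.9 and 95.2 FPKM in the 4 BSA libraries, 96.7, 100.2, 102 and 99.5 in OA and 99.4, 99.9, 102 and 103 in OOA. With doxycycline C1s1 stood at 115, 113, 114 and 107 FPKM in Dox_BSA, 117, 114, 114 and 121 in Dox_OA and 137, 139.6, 141 and 137 in Dox_OOA. Its arms did not overlap in any medium, and the gap was widest in OOA (ratios 1.16, 1.17 and 1.37). B2m, the light chain of class I major histocompatibility molecules, rose by 0.18 ± 0.03, with 0.17 in BSA, 0.14 in OA and 0.22 in OOA. Ly6a, the surface antigen Sca-1, rose by 0.43, more in OOA (0.78) than in BSA (0.21) or OA (0.30).

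Other genes of the 38 were mixed in role. Pvalb, a calcium-binding protein of fast muscle fibres, and Etl4 averaged under 1 FPKM in water in every medium, so they entered the test through their doxycycline libraries. Nothing is read from their calls, though both stay in the counts of 38 higher genes and of 33 without overlap. Both dropped out with a filter of at least 5 FPKM in at least 4 libraries. Pvalb measured 0.536, 0.71, 1.02 and 0.532 FPKM in the 4 BSA libraries, 0.425, 0.507, 0.888 and 0.361 in OA and 0.353, 0.236, 0 and 0 in OOA. With doxycycline Pvalb stood at 2.22, 2.76, 2.18 and 1.77 FPKM in Dox_BSA, 1.46, 1.34, 2.39 and 1.12 in Dox_OA and 1.35, 1.65, 0.733 and 1.04 in Dox_OOA. Its arms did not overlap, at levels near the lower limit of the filter. Etl4 averaged 0.248 ± 0.0339 FPKM in BSA and 1.10 ± 0.128 in Dox_BSA, and rose by 0.74 ± 0.06. The sialyltransferase genes St3gal1 and St3gal5, the latter for ganglioside GM3, rose by 0.35 and 0.33, 2510009E07Rik by 0.31, Cuedc1 by 0.30 and the dynein light chain gene Dynlt3 by 0.17, the smallest mean rise of the 38. Arms of St3gal1, Cuedc1, Col14a1, C1s2 and Mmp9 overlapped in at least 1 medium.

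Among the 25 lower genes Tfrc, the transferrin receptor through which cells take up iron, fell in each medium. Tfrc measured 31.03, 26.99, 27.6 and 28.6 FPKM in the 4 BSA libraries, 34.1, 34.9, 33.2 and 33.5 in OA and 18.1, 16.8, 13.97 and 15.2 in OOA. With doxycycline Tfrc stood at 22.1, 20.6, 20.5 and 20.1 FPKM in Dox_BSA, 22.6, 21.1, 22.1 and 23.1 in Dox_OA and 9.78, 9.96, 8.48 and 8.31 in Dox_OOA. Every doxycycline library lay below the water libraries of its medium. The mean change was -0.59 ± 0.04 (adjusted p = 4.19e-11), with -0.44 in BSA, -0.59 in OA and -0.75 in OOA. Hmga1b and Hmga2, of the HMGA family of chromatin proteins, changed by -0.66 ± 0.05 and -0.58 ± 0.06. Hmga1b measured 32.6, 38.3, 37.4 and 32.2 FPKM in the 4 BSA libraries, 62.5, 65.5, 66.3 and 62.1 in OA and 39.9, 40.4, 33.2 and 38.9 in OOA. With doxycycline Hmga1b stood at 29.3, 22.6, 24.7 and 22.9 FPKM in Dox_BSA, 39.3, 42.3, 46.6 and 39.8 in Dox_OA and 23.96, 18.4, 18.9 and 19.5 in Dox_OOA. Arms did not overlap in any medium, and water levels were highest in OA. Hmga1b is nearly identical to Hmga1, so how the authors' counting divided reads between them makes its level uncertain. Hmga2 fell by 0.74 and 0.73 in BSA and OA but by 0.25 in OOA (adjusted p of the interaction 0.0104), where its water level was 2.95 ± 0.489 FPKM against 7.74 ± 0.848 in BSA (SD, n = 4).

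Some of the 25 lower genes encode proteins that act in the endoplasmic reticulum or are secreted. Hspa5 measured 215, 210.0, 209.6 and 215 FPKM in the 4 BSA libraries, 240.4, 252, 228 and 232 in OA and 375, 349.8, 363 and 373 in OOA. With doxycycline Hspa5 stood at 196, 191, 184 and 188 FPKM in Dox_BSA, 204, 206, 188 and 197 in Dox_OA and 169.7, 167, 159 and 155 in Dox_OOA. Hspa5, the chaperone BiP, was highest in OOA without doxycycline and lowest in Dox_OOA, and its arms did not overlap. Its changes were -0.16 in BSA, -0.26 in OA and -1.16 in OOA, and OOA minus OA was -0.90 (95% interval -1.01 to -0.79). Sec61a1, the channel of the translocon, changed by -0.14, -0.31 and -0.14 and the ribosome-binding membrane protein gene Lrrc59 by -0.19, -0.31 and -0.35 in BSA, OA and OOA. Spp1, the secreted phosphoprotein osteopontin, changed by -0.22, -0.19 and -1.06, and Grem1, a BMP antagonist, by -0.26, -0.39 and -0.82. Spp1 averaged 1106 ± 33.2 FPKM in OOA and 529 ± 23.7 in Dox_OOA, against 564 ± 25.4 and 485 ± 23.5 in BSA and Dox_BSA (SD, n = 4). P4ha2, which hydroxylates proline in collagen, changed by -0.27, Sema5a, a semaphorin, by -0.28 and Uap1l1 by -0.29.

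Others of the 25 act in RNA handling, translation or nuclear transport. Ddx39a measured 45.95, 46.6, 48.6 and 48.5 FPKM in the 4 BSA libraries, 47.8, 47.4, 49.4 and 49.8 in OA and 27.1, 27.97, 31.4 and 28.8 in OOA. With doxycycline Ddx39a stood at 39.00, 36.7, 37.8 and 38.02 FPKM in Dox_BSA, 34.3, 33.6, 37.9 and 37.6 in Dox_OA and 22.1, 20.4, 19.1 and 21.6 in Dox_OOA. This helicase of mRNA export was lower in every doxycycline library of each medium, at -0.32 in BSA, -0.43 in OA and -0.45 in OOA, a mean of -0.40 ± 0.03 (adjusted p = 2.38e-10). Ptbp1, a repressor of exon splicing, changed by -0.23, the initiation factor scaffold gene Eif4g1 by -0.15, the import receptor gene Kpnb1 (importin beta) by -0.19 and the nucleoporin gene Seh1l by -0.20. Erh changed by -0.19, -0.19 and -0.19 in BSA, OA and OOA, with 0.0031 (95% interval -0.14 to 0.14) for OOA minus BSA. Srm, spermidine synthase, changed by -0.19, -0.36 and -0.78, the pyrophosphatase gene Ppa1 by -0.26, -0.44 and -0.35, and Kti12, known in yeast as a partner of the Elongator complex that modifies tRNA, by -0.36, -0.28 and -0.83. Fads2, a fatty acid desaturase, changed by -0.23, -0.18 and -0.16. The remaining lower genes were Prr9 (-0.62), Dynap (-0.52), Capn6 (-0.26) and Cdv3 (-0.24). Arms of Prr9, Dynap and P4ha2 overlapped in at least 1 medium.

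Being called in every medium did not make the changes equal. The interaction of doxycycline with treatment passed for 4179 of all genes tested (32.4%) and for 28 of the 63, 16 higher and 12 lower. For the other 35 a missed threshold does not show equal effects. Of these, 31 had all 3 pairwise differences between media with 95% intervals within ±0.5 on the log2 scale. That limit is larger than the typical effect, as median mean changes among the 63 were 0.32 for higher and -0.29 for lower genes. Staying within ±0.5 therefore does not show similar effects either. The largest of the 3 changes was in OOA for 35 of the 63, in OA for 17 and in BSA for 11. In size, changes grew from BSA to OA to OOA in 9 higher and 10 lower genes, of which 4 and 6 passed the interaction, and shrank in that order in 6 and 4.

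**Figure D3:**
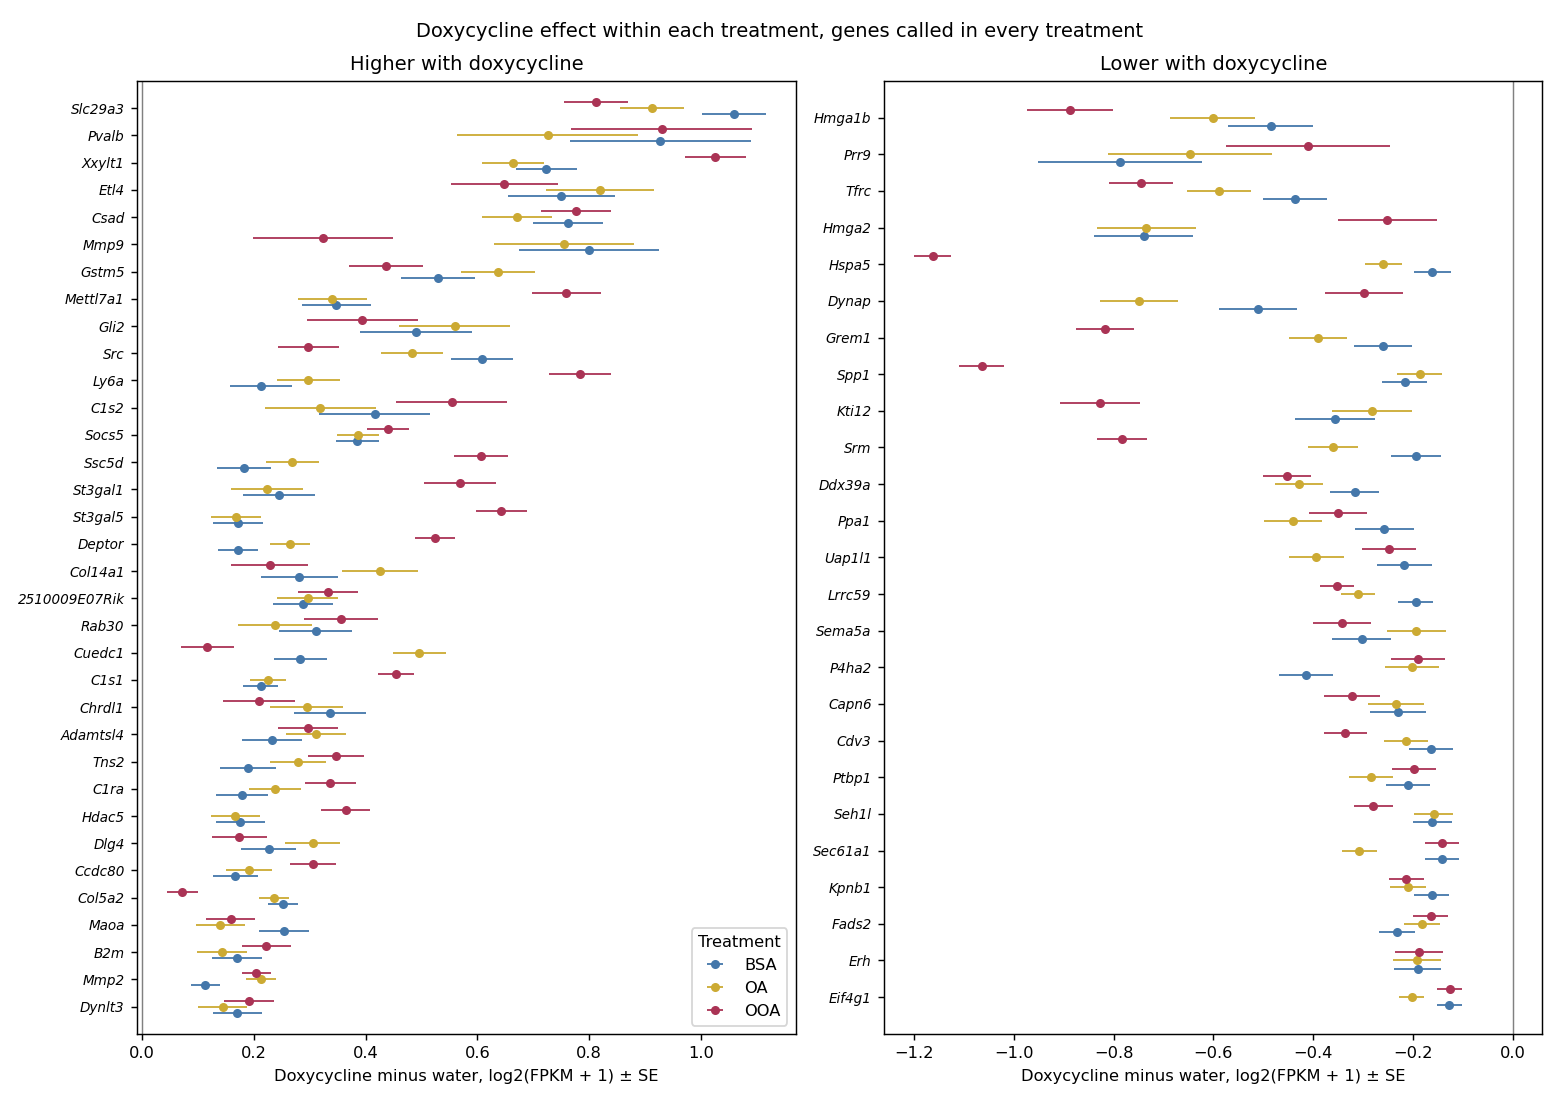
Doxycycline minus water on the log2(FPKM + 1) scale in each treatment, with SE from the fit, for the genes called in every treatment described by name, except Ucp1, Adgrg1 and Fam43a, which lie off the axis. Csad, Socs5 and Erh show 3 nearly equal changes, whereas Hspa5 and Spp1 fell more in OOA (-1.16 and -1.06) than in BSA (-0.16 and -0.22).

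By position, 9 of the 63 lie on chromosome 15, 7 each on chromosomes 2 and 11, and 6 on chromosome 16. Besides the complement genes, close pairs included Deptor and Col14a1, 48.5 kb apart, and Tns2 and Csad, 60.6 kb apart, both on chromosome 15. Across 34 other ways of processing or leaving out a library, 14 of the 63 were called in every medium each time. These were Ucp1, Adgrg1, Fam43a, Slc29a3, Xxylt1, Csad, Gstm5, Src and Socs5 among the higher genes and Hmga1b, Tfrc, Dynap, Ddx39a and Fads2 among the lower. By contrast, B2m, Cdv3, Ssc5d and St3gal1 were called in every medium in 12 of the 34, and Prr9, Srm, St3gal5 and Tns2 in 13.

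Gene lists are given by counts, to be read beside all genes tested, of which 35.8% were called in the mean effect (16% higher, 19.7% lower) and 22.9% were called with equal signs. Of 14 interferon-stimulated genes 6 passed in the mean effect, all higher and all with equal signs in the 3 media (42.9%), and the median was 0.13 against -0.0068 over all genes tested. Bst2, which tethers budding virus, rose by 0.34 ± 0.06 (adjusted p = 0.000157). Of 14 YAP and TEAD targets 6 were higher and 1 lower (50% called), all with equal signs. Nt5e, an enzyme that makes adenosine, rose by 0.30. Of 28 collagen and matrix genes 16 were higher, 10 of them with equal signs, and 4 lower (71.4% called; 20 and 2 with a fixed sum per library). Col6a1 averaged 381 ± 23.4 and 407 ± 8.29 FPKM in BSA and Dox_BSA, 367 ± 5.84 and 433 ± 11.2 in OA and Dox_OA, and 437 ± 13.2 and 514 ± 9.61 in OOA and Dox_OOA (SD, n = 4). Of 13 matrix metalloproteinases and their inhibitors 6 were higher, 5 with equal signs, and 2 lower. Mmp14, a membrane-bound member, rose by 0.17.

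Mitochondrial genes were described by genome and complex. Of 12 mitochondrially encoded mRNAs 9 passed, all higher (median 0.24), 4 of them with equal signs. In OOA 9 passed, in OA 1 and in BSA 0, where the median was -0.0027. Over all genes tested 22% were higher in OOA, 4.29% in OA and 1.11% in BSA. mt-Cytb measured 2447, 1781, 2379 and 2105 FPKM in the 4 BSA libraries, 1556, 1698, 1936 and 2186 in OA and 1791, 1366, 1617 and 1622 in OOA. With doxycycline mt-Cytb stood at 2254, 2365, 2736 and 2530.0 FPKM in Dox_BSA, 2424, 2395, 2481 and 2313 in Dox_OA and 2487, 2507, 2432 and 2208 in Dox_OOA. Of mt-Cytb, a subunit of complex III, the arms overlapped in BSA and separated in OA and OOA. It rose by 0.39 ± 0.06 (adjusted p = 1.58e-05), with 0.19 in BSA, 0.39 in OA and 0.60 in OOA, of which BSA did not pass. Of 48 large-subunit proteins of the mitochondrial ribosome, encoded in the nucleus, 23 passed, all lower (median -0.099), 14 with equal signs. Of 29 small-subunit proteins 11 were lower and 1 higher, 7 with equal signs. Mrpl12 had differences of -0.12, -0.26 and -0.29 and Mrps6 of -0.28, -0.29 and -0.61 in BSA, OA and OOA. Mrpl12 passed in OA and OOA, and Mrps6 in OOA. Of 36 nuclear subunits of complex I 2 were higher and 2 lower (3 and 1 with a fixed sum per library). Of 26 subunits of complexes II to V 3 were higher and 6 lower, a split that turned to 9 and 4 with that scaling. Of 15 mitochondrial chaperones and proteases 9 were lower and 1 higher, 4 with equal signs.

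Iron and redox genes were called lower more often than higher, mostly in OOA, where most calls over all genes tested also fell. Of 20 genes of metal ion handling 12 were lower and 1 higher and 7 did not pass (10 and 2 with a fixed sum per library), 8 of them with equal signs, and Tfrc alone was called in every medium. The ferritin heavy chain gene Fth1, which stores iron, had differences of -0.0065, -0.054 and -0.37 in BSA, OA and OOA, passing in OOA. Of 22 targets of the oxidant-responsive factor NRF2 12 were lower, 7 with equal signs, and 1 higher, and 9 did not pass (11 and 3 with a fixed sum per library). In BSA 2 genes of the first list and 0 of the second were lower, in OA 3 and 4, and in OOA 11 and 11. Over all genes tested 1.07%, 7.01% and 23.7% were lower in BSA, OA and OOA. Hmox1, which degrades haem, had differences of -0.075, -0.32 and -1.43 and the thioredoxin reductase gene Txnrd1 of -0.086, -0.29 and -0.58, both passing in OA and OOA.

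Lists with large mean changes were not always shared. Of 34 targets of the integrated stress response, which raises ATF4 when translation initiation is curbed, 32 were lower in the mean (median -0.45) but 1 had equal signs in the 3 media, and 17 were called in opposite directions. In BSA 17 were higher (median 0.29), in OA 20 lower (-0.31) and in OOA 33 lower (-1.36). Over all genes tested 1.11% were higher in BSA, 7.01% lower in OA and 23.7% lower in OOA, and 2.7% were called in opposite directions. Phgdh, the first enzyme of serine synthesis, had differences of -0.027, -0.81 and -1.36, and Psat1, the next, of 0.016, -0.79 and -1.16. Of 20 cytosolic tRNA synthetases 18 were lower, 6 with equal signs, and 4 were called in opposite directions. The threonyl-tRNA synthetase gene Tars had differences of 0.041, -0.45 and -1.03. Of 26 G2 and M phase genes 13 were higher in the mean, none with equal signs, and 18 were called in opposite directions, with medians of -0.18 in BSA, -0.26 in OA and 0.73 in OOA. Ccna2, a cyclin, averaged 65.6 ± 1.13 and 59.1 ± 2.85 FPKM in BSA and Dox_BSA, 70.7 ± 1.49 and 55.7 ± 2.5 in OA and Dox_OA, and 15.1 ± 0.847 and 30.5 ± 1.79 in OOA and Dox_OOA (SD, n = 4). Of 30 S phase genes 9 were higher and 2 lower (14 and 2 with a fixed sum per library), 1 with equal signs, and 11 were called in opposite directions. Of 24 cholesterol synthesis genes 2 were higher and 4 lower (3 and 1 with a fixed sum per library), none with equal signs, and 9 were called in opposite directions. Sqle, an enzyme of that pathway, had differences of -0.40, -0.31 and 0.061.

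**Figure D4:**
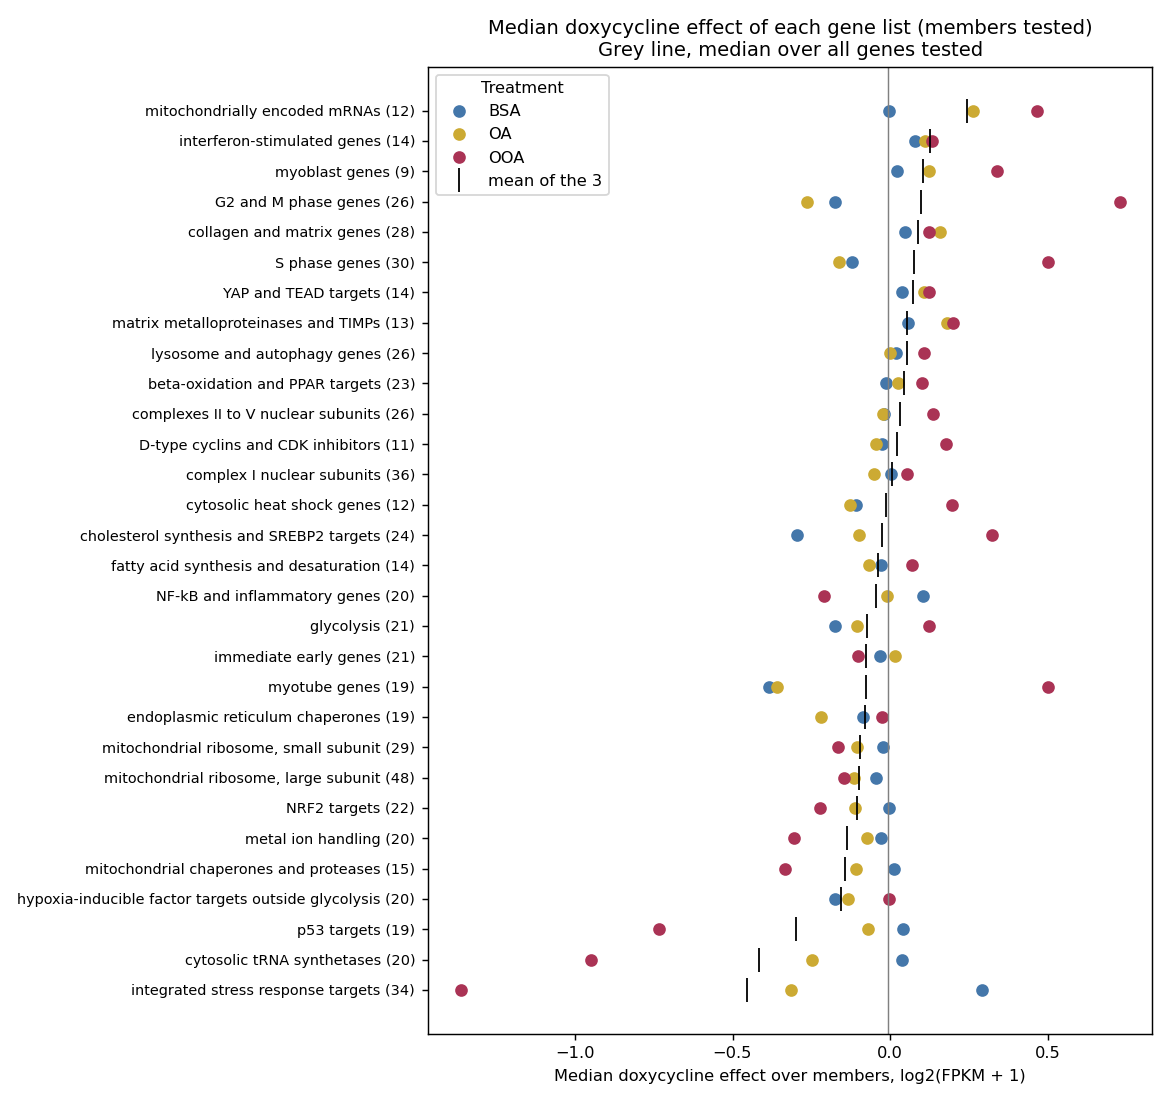
Median doxycycline minus water difference of each gene list on the log2(FPKM + 1) scale in each treatment (points) and in the mean effect (bars), with the number of members tested in brackets and the median of all genes as a grey line. Interferon-stimulated genes show 3 medians above the line, whereas stress response targets run from 0.29 in BSA to -1.36 in OOA. With a fixed sum per library the median bar of cytosolic heat shock genes turns from -0.013 to 0.013.

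Opposite directions were found in 348 genes, 2.7% of those tested, which passed in at least 2 media with unlike signs, and 129 of these were called in the mean effect. Trib3 measured 2.19, 3.21, 2.59 and 2.48 FPKM in the 4 BSA libraries, 3.59, 3.82, 3.84 and 4.46 in OA and 153, 157, 145 and 149.6 in OOA. With doxycycline Trib3 stood at 11.2, 10.1, 7.32 and 10.6 FPKM in Dox_BSA, 1.47, 1.96, 2.42 and 1.60 in Dox_OA and 41.1, 40.6, 42.6 and 38.97 in Dox_OOA. Trib3, a pseudokinase gene induced by ATF4, was higher with doxycycline in BSA and lower in OA and OOA, with no overlap in any medium. Its changes of 1.57 in BSA, -0.79 in OA and -1.86 in OOA gave a mean of -0.36 ± 0.06. Aldh1l2, of mitochondrial folate metabolism, changed by 0.69, -0.70 and -1.98, with water levels of 5.25 ± 0.351, 6.79 ± 0.178 and 79.6 ± 2.98 FPKM and doxycycline levels of 9.07 ± 0.537, 3.80 ± 0.33 and 19.5 ± 0.642 (SD, n = 4). Cdsn, an adhesion protein of skin, changed by 1.04, 0.47 and -2.22. The transcription factor gene Atf3, the ion channel gene P2rx3 and the carbonic anhydrase gene Car6 rose in BSA by 0.88, 0.63 and 1.03, did not pass in OA and changed by -1.84, -2.27 and -2.39 in OOA. Car6 was listed at 0 in every BSA and OA library. In BSA and Dox_BSA Atf3 averaged 0.262 and 1.33 FPKM, P2rx3 0.0153 and 0.578, and Car6 0 and 1.06. These levels lie near or under the 1 FPKM of the filter, so little is read from the rises of these genes in BSA. The mean change of Car6 (-0.42) turned to 2.11 and that of P2rx3 (-0.51) to 1.58 when recovered reads were tested with limma-voom, and both were above 0 with a pseudocount of 0.1.

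**Figure D5:**
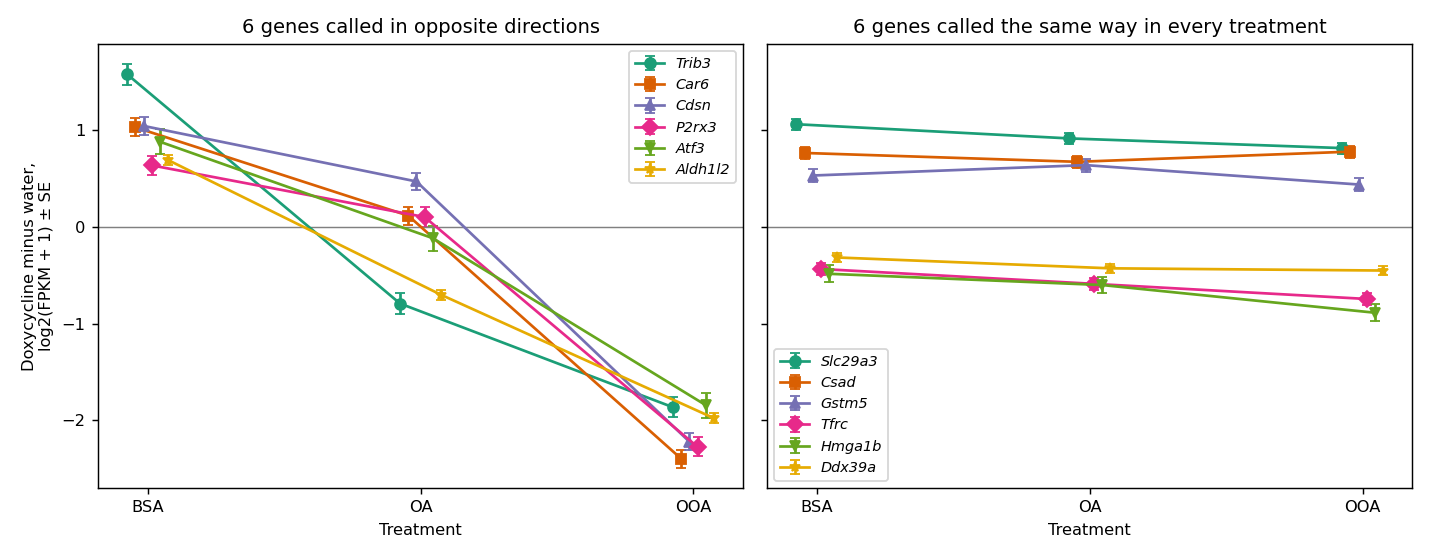
Doxycycline minus water on the log2(FPKM + 1) scale with SE in each treatment, for 6 genes called in opposite directions (left) and 6 called the same way in every treatment (right). On the left all 6 are above 0 in BSA and below 0 in OOA, and on the right each stays on its side of 0.

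A mean call could also come from a single medium. The largest mean changes among genes passing in 1 medium alone were those of Ptgs2 (-0.84), Ppp1r15a (-0.63), Mchr1 (0.62), Fgf21 (-0.61), Gem (0.59) and Orm3 (0.58), and all 6 passed in OOA. Ptgs2, a cyclooxygenase, averaged 97.2 ± 7.61 FPKM in OOA and 18.7 ± 2.34 in Dox_OOA, against 6.31 ± 0.744 and 5.90 ± 0.79 in BSA and Dox_BSA (SD, n = 4). Its differences of -0.085, -0.11 and -2.32 had equal signs, as did those of Mchr1, Gem and Orm3, so these 4 count among the 2950 candidates. Ppp1r15a and the hormone gene Fgf21 had differing signs and do not. Without the oligomycin groups Ppp1r15a turned to 0.093.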

How the data were processed

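RNA from 24 libraries of C2C12 cells was measured by RNA sequencing (NEBNext Ultra II kit, per the labels' protocols). The authors deposited FPKM for 56748 genes, per the file headers, with gene coordinates, biotypes and lengths. Tools listed in the submitters' processing notes are DESeq2, edgeR, HISAT2, HTSeq, STAR and STAR-Fusion, and the build is given there as GRCm39 or mm39. The role of each, versions and whether counting used strand are not given in the sources used here. Multiplied by gene length, the values were whole multiples of 1 read within 0.01 in every library, which gave the read totals and the reads for an alternative test. The library size implied by the values was not the read total itself. Divided by that total it was 0.965 to 0.983 in OOA and 1.006 to 1.016 in Dox_OOA, so a scaling that differed between these arms was already in the values.

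Only genes reaching 1 FPKM in 4 or more libraries were tested, 12904 in all, 10907 of them protein-coding. Values on the log2(FPKM + 1) scale, which understates changes of low genes, were fitted with limma 3.58.1 in R 4.3.3 (lmFit, eBayes with trend and robust estimation) as 6 group means with 18 residual degrees of freedom. Contrasts were the mean doxycycline effect, its 3 parts, the averages of each pair, and an F test of the interaction. P-values were two-sided, adjusted by Benjamini-Hochberg over all genes within each contrast, with a threshold of 0.05. The procedure was tested on simulated data.

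Columns were assigned to samples by name, and no batch or date is given. The replicate numbers were not taken as pairs: within a medium, deviations of same-numbered water and doxycycline libraries from their group means correlated at -0.0382 to 0.113 over 12 pairs, with 1 above 0.1. Pairing is not excluded by this check, as 6 of the 12 water libraries correlated best with the doxycycline library of their own number. Promoters were matched by symbol to RefSeq entries on GRCm38.p6, and no coordinates were carried between builds.

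Members and the 35 lists were chosen with earlier results of these data known, so counts over lists are descriptions. The text could name Ucp1, up to 15 genes per direction called in every medium without overlap, up to 3 members of each list and any called in every medium, up to 6 genes called in opposite directions, up to 6 that pass in 1 medium, and genes within 300 kb of Adgrg1 and Fam43a. The other members of the 63, and the choice of which list genes to describe, were added after their values were seen. One of the 63 is counted but not reported here by name. Alternatives changed the pseudocount, filter, scaling, model and libraries.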

Additional observations from a re-analysis of the deposited data

Results flagged for a closer look

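In 28 of 660 gene and group combinations, 110 genes in 6 groups of 4, a library's gap to the nearest other, divided by the range of its group, was above Dixon's 95% critical value for 4 samples, and chance gives about 1 in 20. In BSA these were Adgrg1 in replicate 1, the highest (0.993), Uap1l1 in replicate 3, the highest (0.849), P2rx3 in replicate 4, the highest (1), Myh3 in replicate 2, the highest (0.873), C3 in replicate 1, the lowest (0.86), Ciapin1 in replicate 2, the highest (0.863) and C1s2 in replicate 2, the highest (0.876). In OA these were Myh3 in replicate 4, the lowest (0.914), Col6a1 in replicate 2, the highest (0.86), Myc in replicate 2, the highest (0.861), Ccdc102a in replicate 1, the lowest (0.946) and Ciapin1 in replicate 4, the lowest (0.847). In OOA these were Csad in replicate 3, the lowest (0.933), P4ha2 in replicate 1, the lowest (0.842), Myod1 in replicate 4, the lowest (0.874), Kpnb1 in replicate 3, the lowest (0.839), Dynlt3 in replicate 1, the highest (0.875), Tns2 in replicate 2, the highest (0.845) and Chrdl1 in replicate 3, the highest (0.922). In Dox_BSA these were Csad in replicate 3, the lowest (0.838), Ccna2 in replicate 1, the highest (0.857), Fosl1 in replicate 4, the lowest (0.887), Adamtsl4 in replicate 1, the highest (0.97) and Chrdl1 in replicate 4, the lowest (0.854). In Dox_OA these were Atf3 in replicate 2, the highest (0.867), Mrpl12 in replicate 4, the highest (0.851) and Tars in replicate 3, the highest (0.84). In Dox_OOA these were Fads2 in replicate 1, the highest (0.837). Each value in brackets is that share of the range.

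The doxycycline effect differed between treatments, by the interaction test of the limma fit adjusted over all genes, in 62 of the 110 genes described. Adjusted p-values for higher genes called in every medium were St3gal5 (1.64e-06), Ly6a (6.49e-06), Deptor (1.99e-05), Ssc5d (6.38e-05), C1s1 (0.000184), Cuedc1 (0.000375), Mettl7a1 (0.000569), Col5a2 (0.00103), Xxylt1 (0.00147), Ucp1 (0.0034), Adgrg1 (0.00374), Fam43a (0.00597), St3gal1 (0.00683), Src (0.0102) and Hdac5 (0.0239). Those for lower genes called in every medium were Hspa5 (1.01e-12), Spp1 (1.43e-10), Srm (2.04e-06), Grem1 (2.39e-05), Kti12 (0.000928), Dynap (0.00905), Hmga2 (0.0104), Sec61a1 (0.0117), Hmga1b (0.0319), Tfrc (0.0319), Lrrc59 (0.0361) and P4ha2 (0.0405). Genes called in opposite directions had Aldh1l2 (2.39e-16), Cdsn (1.46e-14), Car6 (1.9e-14), Trib3 (2.38e-13), Ccna2 (4.48e-13), P2rx3 (5.19e-13), Rrm2 (1.03e-12), Atf3 (2.66e-10) and Myh3 (1.06e-07). For the remaining genes they were Psat1 (9.07e-13), Tars (9.92e-13), Phgdh (2.7e-12), Ppp1r15a (6.73e-12), Hmox1 (1.87e-10), Ptgs2 (4.7e-10), Myc (7.18e-09), Mchr1 (7.48e-09), Myod1 (1.11e-08), Myf5 (4.2e-07), Fgf21 (4.32e-07), Txnrd1 (2.49e-06), Fth1 (4.94e-06), Sqle (9.09e-06), Gem (1.05e-05), Mmp14 (1.23e-05), Ciapin1 (4.82e-05), Hspb1 (7.88e-05), Atp13a3 (0.000145), Scd1 (0.000274), Hk2 (0.00102), mt-Co2 (0.00139), Tmem44 (0.0162), Orm3 (0.0252), Polr2c (0.0466) and Col6a1 (0.0475).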

How the results depend on the processing

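Depth limits low genes, for which 1 read is a large share of the level, and with 4 libraries a group small changes in BSA can be missed. Values of 110 genes under up to 38 settings gave 4060 comparisons with the mean change as reported, of which 4013 kept direction and side of the threshold, 34 kept direction but no longer passed, and 13 reversed.

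Some settings moved a count by over 1.5 times, among them several that left out a single library, and the cause was not tested. Without a filter on low genes, the genes called in every medium were 22 higher and 13 lower, those in opposite directions 214, those higher in BSA 93, those in OA 354 higher and 581 lower, and those passing in a medium not used to choose them 60 in BSA, 521 in OA and 534 in OOA. Under a fixed sum per library 596 genes were lower in OA. With each medium fitted alone, a choice partly added after seeing the data, 12 higher and 7 lower genes were called in every medium, and 38 higher and 42 lower in BSA. The average without OOA called 731 higher and 1113 lower. With the replicate number as a block, 54 higher and 39 lower genes were called in every medium and 2203 higher and 2693 lower in the mean. In the check of deviations 6 of 12 water libraries correlated best with the doxycycline library of their own number, among the 4 of its group. The correlations were weak, so the check neither shows nor excludes pairing.

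Leaving out each library in turn gave 25 to 40 higher and 14 to 37 lower genes called in every medium, 91 to 143 higher and 79 to 177 lower in BSA, 360 to 618 higher and 591 to 957 lower in OA, and 59 to 118 passing in BSA among genes chosen without it. The counts of 360 and 591 were without Dox_OA replicate 2 and OA replicate 2, and 79 was without BSA replicate 4. Candidates ranged from 1253 to 1385 higher and 1520 to 1698 lower. Of the 63 genes, 26 were called in every medium whichever library was left out.

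Mean changes that reversed were those of Car6 to 0.56, P2rx3 to 0.13 with a pseudocount of 0.1, of Car6 to 2.11, P2rx3 to 1.58 and Atf3 to 0.016 with limma-voom, and without OOA of Trib3 to 0.39, Car6 to 0.57, Cdsn to 0.75, P2rx3 to 0.37, Atf3 to 0.38, Ppp1r15a to 0.093, Rrm2 to -0.19 and Ccna2 to -0.24.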

Other observations

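Further lists were described in the same way, by counts in the mean effect. Of 19 p53 targets 14 were lower and 1 higher, 5 with equal signs, and the medians were 0.042 in BSA, -0.070 in OA and -0.73 in OOA. Of 20 targets of hypoxia-inducible factor outside glycolysis 11 passed, all lower, 5 with equal signs, and P4ha2 was called in every medium. Of 21 glycolysis genes 10 were lower and 3 higher, 6 with equal signs, and Hk2, a hexokinase, had differences of -0.15, -0.16 and -0.69 in BSA, OA and OOA. Of 19 chaperones of the endoplasmic reticulum 10 passed, all lower, 6 with equal signs, and 7 were higher and 7 lower in OOA alone (22% and 23.7% of all genes tested). Of 12 cytosolic heat shock genes 3 were higher and 4 lower, 6 with equal signs (4 and 4 with a fixed sum per library). Hsp90aa1, a chaperone, had differences of -0.17, -0.30 and -0.22 and Hspb1, a small heat shock protein gene, of 0.18, 0.36 and 0.81.

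Myoblast and myotube genes differed by medium. Of 9 myoblast genes 5 were higher and 1 lower, 4 with equal signs, with medians of 0.022 in BSA, 0.12 in OA and 0.34 in OOA. Myod1 measured 52.8, 58.2, 57.03 and 58.9 FPKM in the 4 BSA libraries, 42.2, 38.1, 38.2 and 36.01 in OA and 25.9, 26.1, 25.9 and 24.1 in OOA. With doxycycline Myod1 stood at 61.7, 65.5, 58.3 and 63.5 FPKM in Dox_BSA, 44.4, 49.6, 43.3 and 44.3 in Dox_OA and 48.3, 53.6, 47.6 and 53.7 in Dox_OOA. Myod1, the master factor of muscle fate, overlapped between arms in BSA and separated in OA and OOA, with differences of 0.13, 0.23 and 0.97, of which BSA did not pass. Myf5, a related factor, had differences of -0.22, 0.041 and -1.11, passing in OOA. Of 19 myotube genes 3 were higher and 4 lower, 2 with equal signs, and 5 were called in opposite directions (4 and 4 in the mean with a fixed sum per library, 3 and 1 with limma-voom). The other 12 did not pass in the mean. In BSA 4 were lower (median -0.39), in OA 6 lower (-0.36) and in OOA 13 higher (0.50). Over all genes tested 1.07% were lower in BSA, 7.01% lower in OA and 22% higher in OOA. The embryonic myosin gene Myh3 changed by -0.97, -0.69 and 0.36, passing in each medium with unlike signs.

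Of 20 NF-kB and inflammatory genes 3 were higher and 4 lower, 5 with equal signs (4 and 4 with a fixed sum per library), and complement C3 rose by 0.24. Of 21 immediate early genes 3 were higher and 7 lower, 9 with equal signs. Fosl1 had differences of -0.44, -0.25 and -0.62 and Myc of -0.00088, -0.11 and -0.998. Of 26 lysosome and autophagy genes 7 were higher and 6 lower, 7 with equal signs (13 and 6 with a fixed sum per library). Of 23 beta-oxidation and PPAR targets 6 were higher and 5 lower, 3 with equal signs. Of 14 fatty acid synthesis genes 3 were higher and 7 lower, 5 with equal signs, and the desaturase gene Scd1 rose by 0.20. Of 11 D-type cyclins and CDK inhibitors 3 were higher and 4 lower, 2 with equal signs (4 and 4 with a fixed sum per library). Both tested uncoupling protein genes, Ucp1 and Ucp2, were higher in the mean, but only Ucp1 had equal signs. Ucp2 had differences of -0.10 in BSA, 0.26 in OA and 0.91 in OOA, passing in OA and OOA. Markers of adipocytes and epithelium had 1 tested gene each, which did not pass, and those of endothelium had none.

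In the oxidative phosphorylation lists Ndufa6 rose by 0.12 and Cox5a changed by -0.16 in the mean. Ndufa6 had differences of 0.10, 0.15 and 0.09 in BSA, OA and OOA and passed in none of them. Cox5a had differences of -0.14, -0.18 and -0.16 and passed in OOA. In their lists 32 of 36 subunits of complex I and 17 of 26 of complexes II to V did not pass in the mean. The mitochondrial transcript mt-Nd3 rose by 0.47 in the mean and passed in no medium alone, and mt-Co2 had differences of -0.15, 0.29 and 0.94. In BSA mt-Nd3 averaged 3.77 FPKM and mt-Co2 64.7, against 2178 for mt-Cytb of the same genome. Why these levels were so unlike was not tested, and it leaves the levels of mt-Nd3 and mt-Co2 uncertain. Rrm2, of deoxynucleotide synthesis, had differences of -0.17, -0.22 and 1.19.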
